A study of Mus musculus with 7 samples.

Results

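The AP-1 subunits and immediate early factors considered here are 10 genes, Fos, Fosb, Fosl1, Fosl2, Jun, Junb, Jund, Atf3, Egr1 and Ier3, measured in mouse primary keratinocytes 48 h after they were transfected with small interfering RNA (siRNA). Every probe set whose only gene symbol in the array's annotation was 1 of these names was taken, which gave 12 of 22626 probe sets and all 10 genes of 12393 on the array. Jun and Fosl1 had 2 probe sets each. Cells received siRNA against Trp63, the gene of the epithelial transcription factor p63 (5 arrays, replicates 1, 2, 3, 4 and 7), or a non-specific control siRNA (2 arrays, replicates 5 and 6). All 7 arrays share the transient transfection and the collection time. The labels name no strain, age or number of cultures. A p-value therefore sets a difference against the spread among these arrays only, and that spread may be technical.

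AP-1 is a dimer of basic leucine zipper (bZIP) proteins that binds DNA at promoters and enhancers. Jun proteins pair with each other or with Fos proteins, whereas Fos proteins need a Jun partner. Many of these genes are immediate early genes, which are transcribed within minutes of a growth factor, stress or wounding signal and whose transcripts decay quickly. In epidermis AP-1 is known for its part in differentiation, in wound repair and in the response to tumour promoters.

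The promoters of Jund, Ier3, Fosl2 and Fosb are shown because these were the genes whose 5 silenced values lay entirely on 1 side of both controls. Each sequence is the 250 bases before the annotated start, 5′ to 3′ on the gene's strand, from RefSeq (GRCm38.p6). Promoters of 8 of the 10 genes were searched. Those of Egr1 and Fosl1 were not, so the motif results below leave these genes out. Capitals mark a match to the binding motif of EGR factors, GCGNGGGCG, searched on both strands.
Jund, chr8:70697489-70697738, plus strand: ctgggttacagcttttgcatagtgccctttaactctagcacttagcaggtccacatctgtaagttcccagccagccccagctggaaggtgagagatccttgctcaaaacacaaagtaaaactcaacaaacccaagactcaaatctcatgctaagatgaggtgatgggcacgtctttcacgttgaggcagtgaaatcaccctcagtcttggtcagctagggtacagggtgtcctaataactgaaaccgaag
Ier3, chr17:35821463-35821712, plus strand: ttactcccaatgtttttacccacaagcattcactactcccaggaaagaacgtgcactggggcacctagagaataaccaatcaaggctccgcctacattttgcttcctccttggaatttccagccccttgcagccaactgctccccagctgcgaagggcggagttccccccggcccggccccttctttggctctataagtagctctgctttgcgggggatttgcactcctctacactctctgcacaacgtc
Fosl2, chr5:32136222-32136471, plus strand: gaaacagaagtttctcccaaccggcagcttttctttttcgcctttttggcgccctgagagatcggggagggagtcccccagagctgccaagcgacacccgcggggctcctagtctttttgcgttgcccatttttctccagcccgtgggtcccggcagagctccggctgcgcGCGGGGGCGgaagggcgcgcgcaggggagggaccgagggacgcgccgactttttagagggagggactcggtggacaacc
Fosb, chr7:19310046-19310295, minus strand: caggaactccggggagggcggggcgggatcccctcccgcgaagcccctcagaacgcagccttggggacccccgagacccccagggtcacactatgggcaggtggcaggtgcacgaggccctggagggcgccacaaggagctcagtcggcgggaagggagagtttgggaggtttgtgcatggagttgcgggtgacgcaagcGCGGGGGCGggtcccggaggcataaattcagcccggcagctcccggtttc
Among the 8 promoters only those of Fosb and Fosl2 held an EGR match, and 4.70% of 32851 promoters of the same length held 1. None of the 8 held the AP-1 motif TGANTCA (6.75% of all promoters), the cyclic AMP response motif TGACGTCA (1.55%), a CArG box of the serum response factor (1.47%) or a p53 family half-site (7.13%), each searched on both strands. The motifs do not overlap in these windows, and a match or its lack describes only these letters.

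Silencing was visible in Trp63 itself. The brightest of its 3 probe sets read 541, 519, 457, 504 and 492 on the silenced arrays against 1447 and 1683 on the controls (log2 difference -1.61, SE 0.088, limma adjusted p = 1.0e-05). The other 2 probe sets, dimmer ones, fell 1.40-fold and 1.45-fold (log2 differences -0.49 and -0.54, limma adjusted p = 0.00228 and 0.000339). Median intensity was 207 to 214 on all arrays. The 7 measured keratinocyte markers, Krt5 and Krt14 among them, summed to 30546 to 33923 with Trp63 siRNA and 41852 to 44815 with control siRNA, and all 7 fell. Trp63 itself is 1 of them, and the sum of the other 6 was 30088 to 33382 against 40404 to 43132. All 6 endothelial markers lay below the array median on every array. Fibroblast markers (8 of 8 measured, 1 rose) summed to 1303 to 1548 against 1166 to 1350 in controls, and immune markers (8 of 8, 1 rose and 1 fell) to 1474 to 1664 against 1519 to 1605. Melanocyte markers (7 of 8 measured, none called) summed to 6739 to 11857 against 6576 to 9945. They were high on silenced replicates 1 and 2 and control replicate 5 and low on the other 4 arrays, a split that cuts across the groups. The fibroblast sums had the same order. They were 1548 and 1504 on silenced replicates 1 and 2 and 1303 to 1337 on replicates 3, 4 and 7. On control replicates 5 and 6 they were 1350 and 1166. The split is therefore not particular to melanocyte markers. Bacterial spike controls were high on silenced replicates 2, 3 and 7 only. The 3′ to 5′ signal ratio of the Gapdh control was 0.905 to 0.938 with Trp63 siRNA and 0.980 to 0.983 in controls, and that of beta-actin 1.14 to 1.25 against 1.30 to 1.36. The part of these array differences in the results was not tested, except where a value with the split is given.

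Of the 12 probe sets, those of Jund and Ier3 rose with Trp63 siRNA at a limma adjusted p below 0.05, none fell and 10 stayed short of that threshold. Over all probe sets 7.83% passed as higher and 8.16% as lower. At an unadjusted p of 0.05 in the same limma fit, 4 of the 12 passed, Jund, Ier3 and Fosl2 as higher and Fosb as lower, where 12.6% of all probe sets were higher and 17.9% lower. Groups did not overlap at 3 probe sets in the upward and 1 in the downward direction, while 14.2% and 22.4% of all probe sets had no overlap in these directions. The median difference of the 12 was 0.13 on the log2 scale, beside -0.03 for all probe sets. The median SD among the silenced arrays was 0.15 on the log2 scale for these probe sets and 0.07 over all probe sets, a description with no test. In bulk RNA, fewer cells of a type and less RNA per cell cannot be told apart.

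**Figure D1:**
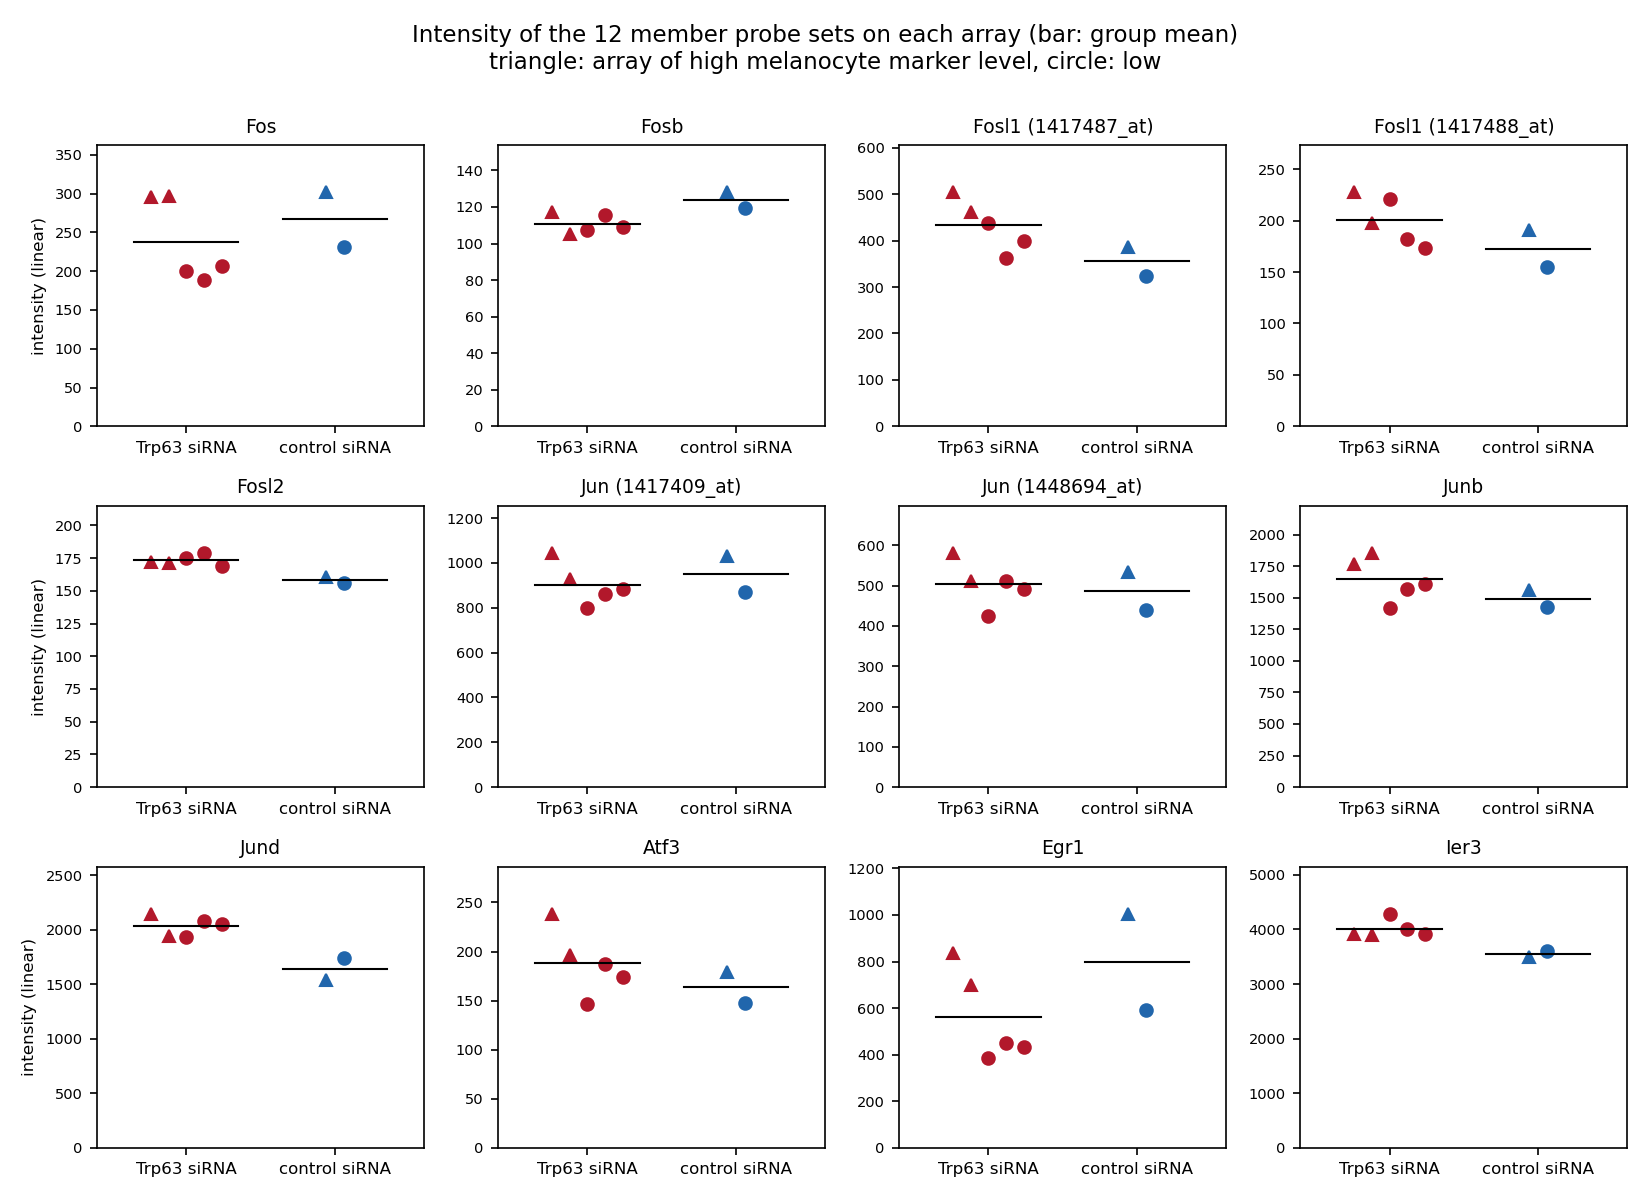
Deposited intensity (linear scale, from 0) of each of the 12 probe sets on the 5 Trp63 siRNA arrays (red, left) and the 2 control siRNA arrays (blue, right), with a black bar at each group mean. Triangles mark the 3 arrays of high melanocyte marker level and circles the other 4. The groups are apart at Jund, Ier3, Fosl2 and Fosb, and triangles lie above circles in both groups at Fos and Egr1.

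Among the Jun proteins, Jund rose and the others did not pass. Jund, the family member that is expressed in resting cells and restrains growth in several cell types, read 2148, 1940.1, 1930.5, 2082 and 2055 on the silenced arrays, against 1538 and 1745 on the controls. Every silenced value was above both controls. The means were 2031 ± 94.0 (SD, n = 5) with Trp63 siRNA and 1641 ± 146 (SD, n = 2) with control siRNA, a 1.24-fold rise (log2 difference 0.31, SE 0.070, 95% interval 0.15 to 0.46, limma adjusted p = 0.0170). When control replicate 5 was left out the call ended, and the log2 difference was 0.22. It also ended among the 3 arrays of high melanocyte level (log2 difference 0.41, limma adjusted p = 0.0717) and among those of low spike level (0.37, limma adjusted p = 0.123), where the difference was not smaller.

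Jun, the founding subunit and a target of the JNK kinases, had 2 probe sets. The first (1417409_at) read 1046, 931, 798, 859.9 and 883 with Trp63 siRNA against 1031 and 872 in controls. The second (1448694_at) read 581, 511, 424, 512 and 492 with Trp63 siRNA against 534 and 439 in controls. The groups overlapped at both. The differences were -0.07 (95% interval -0.32 to 0.17, limma adjusted p = 0.680) and 0.05 (95% interval -0.22 to 0.32, limma adjusted p = 0.811). Both intervals hold differences of either sign, so the values give no direction for Jun. An interval is not a limit of detection.

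Junb, which can oppose Jun in transcription and limits cell cycle entry, read 1768, 1856, 1418, 1570.3 and 1611 with Trp63 siRNA against 1559 and 1423 in controls. The lowest silenced array lay below both controls and the 4 others above. The difference was 0.14 (SE 0.10, 95% interval -0.09 to 0.36, limma adjusted p = 0.401).

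No Fos family gene passed the test, and the differences ran in both directions. Fosl1 encodes FRA1, which lacks the transactivation domain of FOS and is known from migrating epithelial cells. Its brighter probe set (1417487_at) read 505, 461, 437, 362 and 398 on the silenced arrays, against 386 and 325 on the controls. Of the silenced values 4 were above both controls and replicate 4 lay between them. The means were 433 ± 55.0 (SD, n = 5) with Trp63 siRNA and 355 ± 43.6 (SD, n = 2) with control siRNA (log2 difference 0.27, SE 0.12, 95% interval -0.01 to 0.55, limma adjusted p = 0.179). The second Fosl1 probe set (1417488_at) read 228, 197, 220.5, 182 and 173 with Trp63 siRNA against 190.5 and 154 in controls. It differed by 0.20 in the same direction (SE 0.11, limma adjusted p = 0.266), with overlap between the groups.

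Fosl2 encodes FRA2, another Fos protein of late and sustained expression. It read 172, 171, 175, 179 and 169 with Trp63 siRNA against 161 and 156 in controls. The silenced arrays were all higher, but by 0.12 on the log2 scale (SE 0.046, 95% interval 0.02 to 0.22, limma adjusted p = 0.114). Fosb, an inducible subunit with a known splice variant, read 117, 105, 107, 116 and 109 with Trp63 siRNA against 128 and 119.6 in controls. Here all silenced arrays were lower, by 0.14 (log2 difference -0.14, SE 0.049, 95% interval -0.25 to -0.03, limma adjusted p = 0.0816). Both probe sets lay below the array median on all 7 arrays, and Fosb passed without silenced replicate 1 (limma adjusted p = 0.0349).

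Fos, the classical immediate early gene, did not pass, and its values followed the melanocyte split. It read 296, 297, 201, 189 and 207 on the silenced arrays, against 302 and 232 on the controls. Silenced replicates 1 and 2 and control replicate 5 lay between 296 and 302, and the other 4 arrays at 232 or below. The difference between the groups was -0.17 (SE 0.19, 95% interval -0.59 to 0.25, limma adjusted p = 0.577). On each side of the split the silenced arrays lay below that side's control, and with the split as a block the difference was -0.12 (limma adjusted p = 0.190).

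Egr1, a zinc finger factor that is induced by serum and wounding through MAP kinases, had the largest difference of the 12 probe sets and did not pass. It read 838, 700.5, 386, 448 and 435 with Trp63 siRNA against 1006 and 591 in controls. Silenced replicates 3, 4 and 7 were below both controls, while replicates 1 and 2 lay between them. The means were 562 ± 197 (SD, n = 5) with Trp63 siRNA and 798 ± 294 (SD, n = 2) with control siRNA (log2 difference -0.51, SE 0.31, 95% interval -1.20 to 0.18, limma adjusted p = 0.296). The difference was -0.13 without control replicate 5 and -0.89 without control replicate 6, and neither passed (limma adjusted p = 0.883 and 0.210).

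Atf3, a bZIP factor of the stress response that can pair with Jun proteins, read 239, 196, 147, 187 and 174 with Trp63 siRNA against 179 and 148 in controls. The groups overlapped, with a difference of 0.18 (SE 0.15, 95% interval -0.15 to 0.51, limma adjusted p = 0.450). Ier3, an early response gene known for effects on survival and on ERK signalling, was the other gene that rose. It read 3924, 3906, 4291, 4012 and 3917 on the silenced arrays, against 3493 and 3608 on the controls. All 5 silenced values were above both controls, and replicate 3 stood apart as the highest. The means were 4010.1 ± 162 (SD, n = 5) with Trp63 siRNA and 3551 ± 81.3 (SD, n = 2) with control siRNA, a 1.13-fold rise (log2 difference 0.17, SE 0.048, 95% interval 0.07 to 0.28, limma adjusted p = 0.0376). The call ended when a control was left out (limma adjusted p = 0.219 for replicate 5 and 0.119 for replicate 6) and without silenced replicate 3, 4 or 7 (0.0572, 0.0786 and 0.0671). It also ended with quantile normalization (0.0700) and when the spike split entered the fit as a block (0.156).

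**Figure D2:**
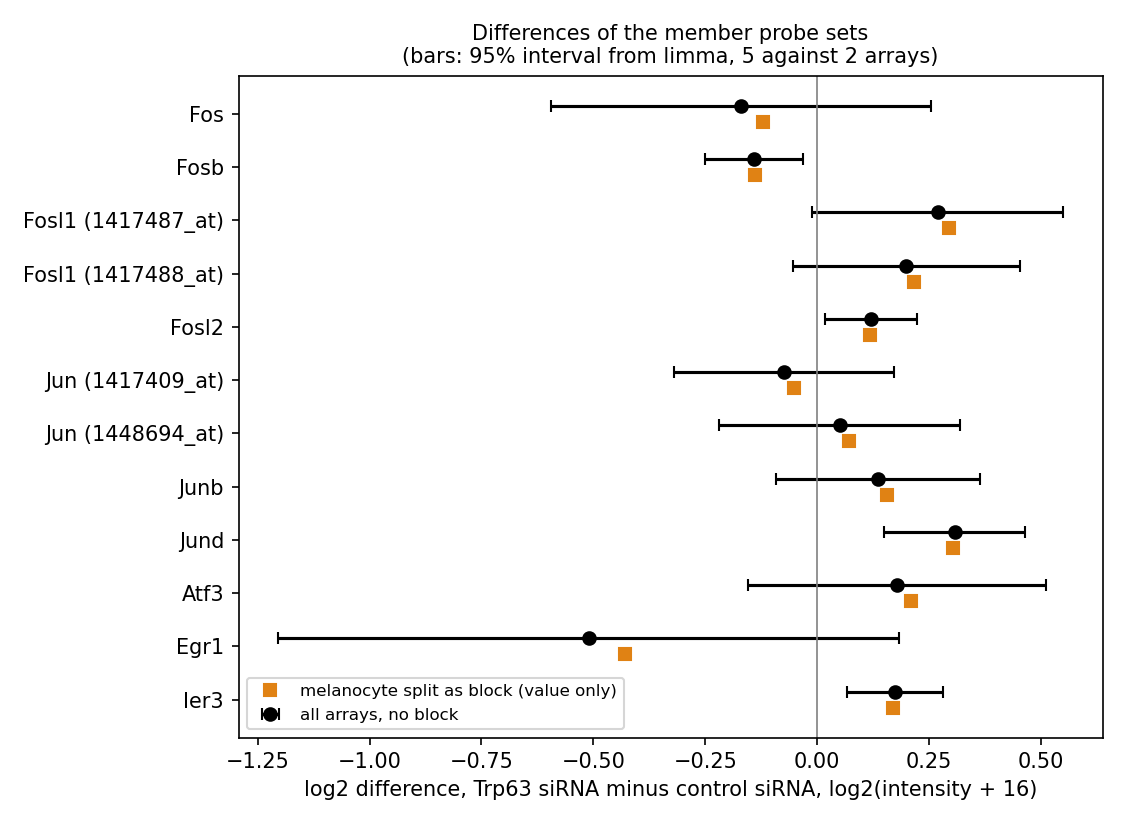
Log2 difference of each probe set, Trp63 siRNA minus control siRNA, on the log2(intensity + 16) scale. Black points with bars are the estimates and 95% intervals of limma over 5 and 2 arrays, and orange squares the estimates with the melanocyte split as a block. The intervals are narrow at Ier3, Fosl2 and Fosb and widest at Egr1, from -1.20 to 0.18.

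Several of these genes followed the melanocyte split in both groups. At 6 of 12 probe sets (Fos, Egr1, Junb, Atf3, 1417409_at of Jun and 1417487_at of Fosl1), silenced replicates 1 and 2 were above replicates 3, 4 and 7, and control replicate 5 was above replicate 6. This order held at 16.8% of all probe sets. Egr1 was higher by 0.84 on the log2 scale within the silenced group and by 0.75 between the controls, and Fos by 0.54 and 0.36. Jund and Ier3 did not show it, with differences of 0.01 and -0.06 within the silenced group and -0.18 and -0.05 between the controls.

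Within each side of the split the comparison could be read against that side's own control. Egr1 was lower by 0.39 on the log2 scale (log2 difference -0.39) on the arrays of high melanocyte level, 2 silenced against 1 control. It was lower by 0.47 (log2 difference -0.47) on those of low level, 3 silenced against 1 control. All 12 probe sets kept the same sign on both sides. With the split as a block, Egr1 passed as lower (log2 difference -0.43, SE 0.087, limma adjusted p = 0.00630) and 1417487_at of Fosl1 as higher (0.30, SE 0.079, limma adjusted p = 0.0236). The second Fosl1 probe set, 1417488_at, did not pass there (0.22, SE 0.091, limma adjusted p = 0.116). Jund (0.30, limma adjusted p = 0.00852) and Ier3 (0.17, limma adjusted p = 0.0162) also passed in that fit, so that 3 probe sets were higher and 1 lower, where 11.3% and 12.8% of all probe sets were called. On the arrays of low melanocyte level alone, with 1 control array, Egr1 and Fos passed as lower in limma, where 16.3% of all probe sets did. The split was defined by 7 melanocyte genes, but the fibroblast marker sums had the same order. Whether melanocyte RNA or another feature of these arrays carried it was not tested.

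**Figure D3:**
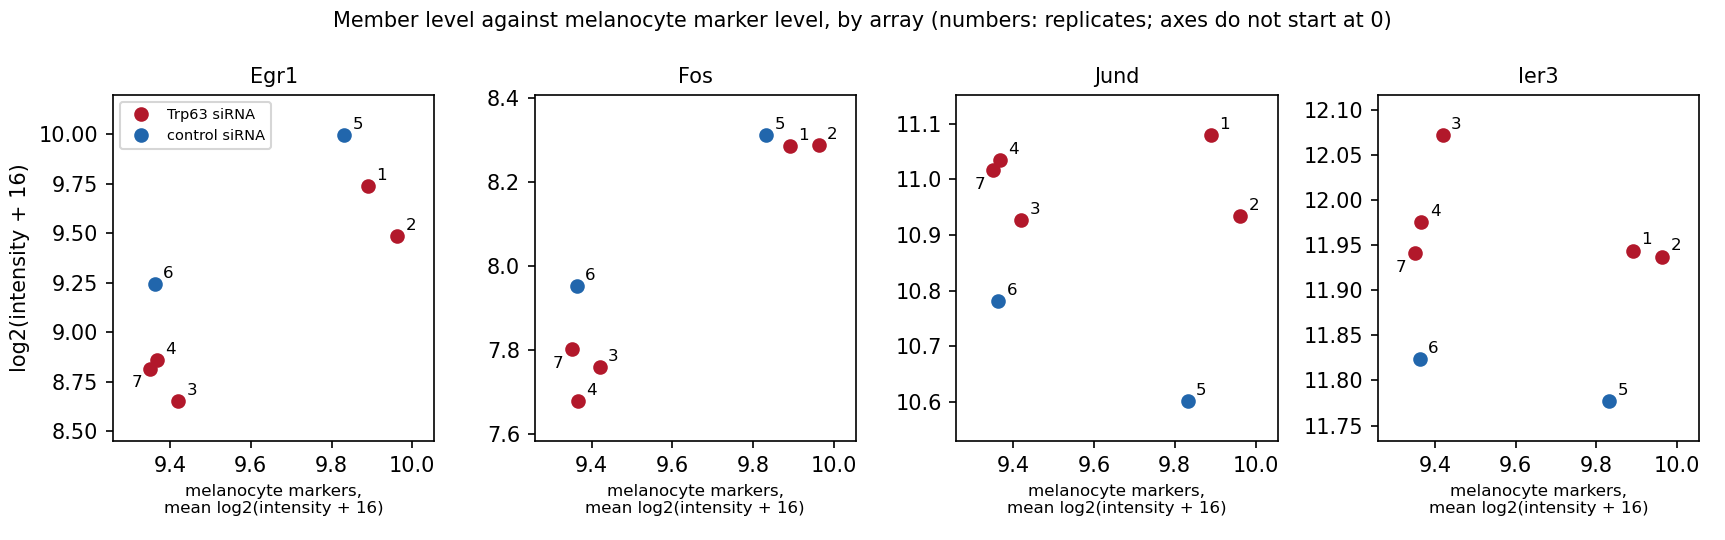
Level of Egr1, Fos, Jund and Ier3 (vertical axes, log2(intensity + 16), not from 0) against the mean level of the 7 melanocyte markers (horizontal axes, same scale) on the 5 Trp63 siRNA arrays (red) and 2 control siRNA arrays (blue), with replicate numbers. Egr1 and Fos were higher on the 3 arrays at the right, while Jund and Ier3 separate by colour.

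The other genes of the pathway were taken from 5 lists, each gene represented by its brightest probe set. These lists were chosen with earlier results of these data known. Their counts beside the shares of all genes are therefore descriptions with no test. Over 12393 genes, 8.03% passed as higher and 8.56% as lower. On the same footing 2 of the 10 AP-1 and immediate early factors were higher and 0 lower, with 3 higher and 1 lower at an unadjusted p of 0.05 in limma, where 12.7% of all genes were higher and 19.0% lower. The median difference of all genes was -0.04.

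Of 31 measured other immediate early and early response genes, 12 passed, all of them higher, and the list median was 0.22. At an unadjusted p of 0.05 in limma, 15 were higher and 1 lower, beside the 12.7% and 19.0% of all genes. Ccn2 and Ccn1, secreted matrix-associated proteins, rose 3.16-fold (1133 ± 92.8 against 347 ± 19.1, SD, n = 5 and 2) and 2.17-fold. Errfi1, a feedback inhibitor of the EGF receptor, rose 2.36-fold (1595 ± 34.3 against 667 ± 52.4, SD, n = 5 and 2). Their limma adjusted p was 5.2e-05 or lower. The Ccn1 probe set is of a type whose probes can match other transcripts. The EGR relatives of Egr1 did not pass, with log2 differences of 0.38 for Egr2, -0.06 for Egr3 and -0.11 for Egr4. With the melanocyte split as a block Egr2 passed as higher (0.43, limma adjusted p = 0.000472), while Egr3 and Egr4 did not (limma adjusted p = 0.662 and 0.282). The probe sets of Egr2 and Egr4 lay below the array median on all 7 arrays. Among the arrays of low spike level 6 of the 31 rose, and the share of all genes in that fit was not counted.

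Of 18 measured other bZIP factors only 1 passed, and the list median was 0.02. It was Nfe2l2, which encodes the antioxidant regulator NRF2, at 1001 ± 28.1 with Trp63 siRNA against 1281 ± 103 in controls (SD, n = 5 and 2), and it fell (log2 difference -0.35, SE 0.068, limma adjusted p = 0.00846). Leaving out control replicate 6 ended this call (limma adjusted p = 0.107). At an unadjusted p of 0.05 in limma, 5 were higher and 3 lower, beside the same shares of all genes. With the melanocyte split as a block 5 rose and 3 fell, where 11.3% of all probe sets were called higher and 12.8% lower. The share over all genes in that fit was not counted.

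Upstream kinases and partners of the serum response factor moved in both directions. Of 25 measured, 7 passed, 2 as higher and 5 as lower, around a median of -0.03. Map3k8, a kinase that feeds the ERK and JNK pathways, rose 1.69-fold (379 ± 34.2 against 218 ± 24.8, SD, n = 5 and 2), and Map2k3, a kinase of p38, rose 1.33-fold. Map3k1, an activator of the JNK pathway, fell 1.63-fold (254 ± 30.4 against 421 ± 36.6, SD, n = 5 and 2). The limma adjusted p of these genes was 0.00335 or lower. Without control replicate 6 none of the list fell, Map3k1 included (limma adjusted p = 0.0512), and without control replicate 5 1 fell.

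Among 16 measured inhibitors and turnover genes 5 passed, 2 as higher and 3 as lower, around a median of -0.05. The phosphatase genes Dusp1 and Dusp10, which act on JNK and p38, rose 1.98-fold (763 ± 83.4 against 380.2 ± 92.4, SD, n = 5 and 2) and 1.35-fold. Fbxw7, whose product marks Jun for degradation, fell 1.55-fold (388 ± 12.9 against 612 ± 68.6, SD, n = 5 and 2). The limma adjusted p of these genes was 0.00329 or lower. The other genes that fell were Dusp7 and Dusp6, phosphatases of ERK, the Dusp7 probe set of a type whose probes can match other transcripts (log2 differences -0.33 and -0.40, limma adjusted p = 0.00462 and 0.0184). Neither passed without control replicate 6 (limma adjusted p = 0.0580 and 0.0510), nor Dusp6 without control replicate 5 (0.177). Among the arrays of low spike level none of the list passed, Fbxw7 and Dusp1 included (limma adjusted p = 0.0526 and 0.0538). Leaving out control replicate 6 ended the call of Dusp10 (limma adjusted p = 0.0548), and 1 gene rose and 1 fell in that fit.

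Genes known as AP-1 targets in keratinocytes moved in both directions. Of 28 measured, 18 passed, 10 as higher and 8 as lower, around a median of 0.23. Timp1, a protease inhibitor, rose 1.66-fold (358 ± 19.7 against 209.8 ± 17.4, SD, n = 5 and 2), and the collagenase gene Mmp13 rose by 0.45 on the log2 scale (110.0 against 76.3), below the array median on all 7 arrays. The basal keratin gene Krt14 fell 1.15-fold (log2 difference -0.20), and was the brightest probe set on both control arrays, where signal can be compressed, with a probe set whose probes can match other transcripts. Their limma adjusted p was 0.000522 or lower. Larger falls were those of the differentiation genes Ivl (2.81-fold), Krt10 (2.88-fold) and Krt1 (3.47-fold) (limma adjusted p = 0.000773, 0.00187 and 0.00761). Other differentiation genes passed as higher, namely Flg (1.98-fold), Lor (1.83-fold), Sprr1b (1.16-fold) and Sprr1a (1.38-fold), with a limma adjusted p of 0.000554, 0.0188, 0.0319 and 0.0373. The controls lay far apart at Sprr1a (10597.5 and 7200, lowest silenced value 10721) and Lor (2586 and 1577, lowest silenced value 2728). Sprr1a and Sprr1b were also among the brightest probe sets, where signal can be compressed. Whether these rises passed without control replicate 6 is not given here. The largest rise of the list was that of Il1a (3.47-fold, limma adjusted p = 0.000648). Krt1 passed neither without control replicate 5 (limma adjusted p = 0.0861), nor in a fit blocked on spike level (0.0602). With control replicate 6 left out 4 rose, among the arrays of low spike level 5, and among those of low melanocyte level, with 1 control array, 16, where 14.1% of all genes were called higher. With a block for the spike split 5 fell.

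**Figure D4:**
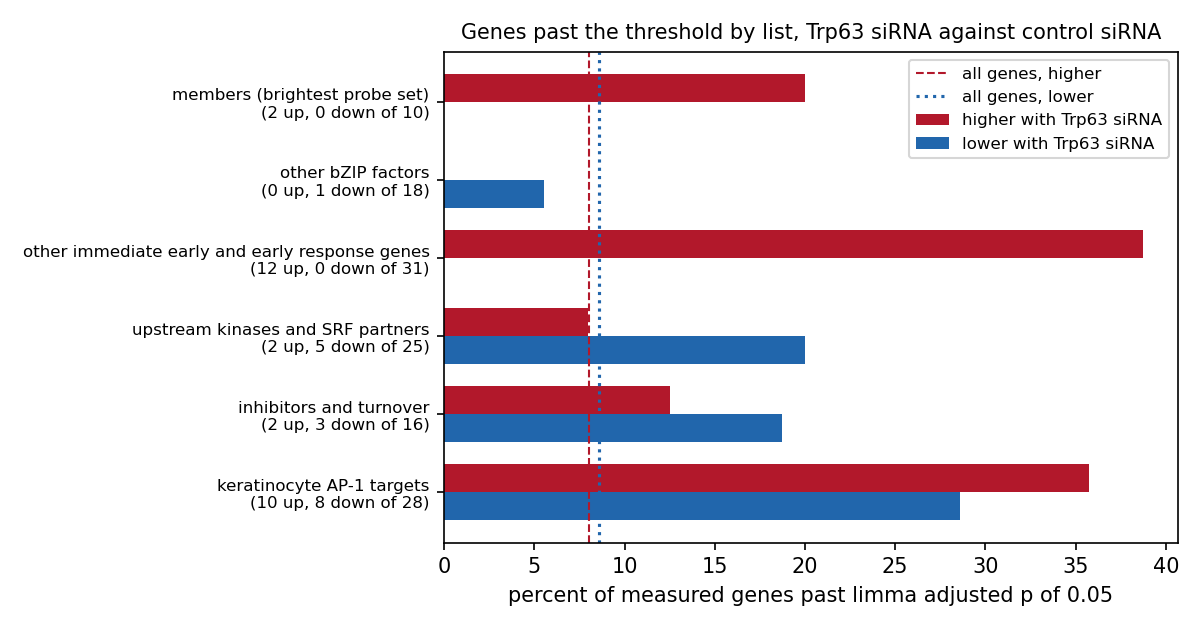
Percent of the measured genes of each list past a limma adjusted p of 0.05, higher (red) or lower (blue) with Trp63 siRNA against control siRNA, each gene by its brightest probe set. The dashed and dotted lines are the shares over all 12393 genes, 8.03% higher and 8.56% lower. The red bar of other immediate early and early response genes stands for 12 of 31. The lists were chosen with earlier results of these data known.

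The order of arrays seen at Fos and Egr1 was also counted in these lists. It held for 10 of 31 other immediate early and early response genes, 4 of 18 bZIP factors and 9 of 25 upstream genes. The same order held for 4 of 16 inhibitors and 13 of 28 targets, beside 6 of the 10 factors. Over all probe sets the share was 16.8%, and the share over all genes was not counted. Ier2, another immediate early gene, read 1053, 980.1, 834, 848 and 837 with Trp63 siRNA against 1134 and 970.0 in controls. Its values followed the order of Fos, and its group difference was -0.21 (SE 0.11, limma adjusted p = 0.243). With the melanocyte split as a block it passed as lower (log2 difference -0.18, limma adjusted p = 0.0467).

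The genes whose pattern over the 7 arrays was most like that of Jund, the probe set with the smallest p, were Lrp10, Tmbim1 and Natd1. After each profile was centred on its own mean, their root mean square differences from Jund were 0.024, 0.025 and 0.032 on the log2 scale, among 6891 genes at or above the median level. Lrp10 read 1359, 1252, 1273, 1363 and 1313 with Trp63 siRNA against 1009 and 1103 in controls. At both genes silenced replicates 2 and 3 were the lowest of their group and control replicate 5 was the lowest of all arrays.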

How the data were processed

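Trizol-extracted total RNA of mouse primary keratinocytes was labelled with biotin by the Affymetrix protocol, per the labels' protocols. The deposited table gives linear intensities, 1 for every probe set on each array. How the authors summarised, corrected and normalised them is not stated in the labels. Of 22690 probe sets, 64 controls were left out and 22626 tested (20380 with 1 gene symbol, 691 with several, 1555 with none). Of those with 1 symbol, 20351 matched a RefSeq gene by Entrez ID.

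Intensities became log2(intensity + 16), which understates the change of dim genes. Groups were compared with limma 3.58.1 in R 4.3.3 (lmFit, eBayes with a trend), with Benjamini-Hochberg adjustment over 22626 probe sets and a threshold of 0.05. No filter or detection call was used. Simulated data for 22626 probe sets in this design held changes of 0.5, 1 and 2 on the log2 scale. Of these, 44 of 50, 95 of 100 and 49 of 50 were recovered, in that order, with 15 false calls. The simulated noise was independent between probe sets, without the array splits, and no change was below 0.5. These rates therefore do not cover smaller differences, such as those of most members. Arrays were split at the largest gap of the mean level of 7 melanocyte markers, and of 45 spike probe sets. Members and gene lists were chosen with earlier results of these data known. All members were named, and from each list up to 3 genes past the threshold with the smallest p and no overlap between groups. Egr2, Egr3, Egr4, Ier2, Dusp6, Dusp7, Ivl, Krt10, Krt1, Krt16, Krt5, Krt6a, Ccnd1, Flg, Lor, Sprr1a, Sprr1b and Il1a were named after their values were seen. Alternatives covered normalization, pseudocount, a filter, eBayes settings, array weights, both splits as blocks, subsets of arrays (added after seeing the data) and fits without each array in turn. A lone control was taken to have the spread of the silenced arrays. Figures were drawn with matplotlib 3.10.9.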

Additional observations from a re-analysis of the deposited data

Results flagged for a closer look

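Ier3 on Trp63 siRNA replicate 3 read 4291, far above the 4 other silenced arrays for their range. The gap to the next array was 0.724 of the group's whole range, above the limit of 0.71 for 5 values. Chance flags about 1 in 20 groups. The Ier3 value was the only such one among the 12 probe sets, the genes taken from the lists by rule, and Trp63. Genes named after their values were seen were not searched. Of these, Dusp6 read 339 on silenced replicate 2 and 394 to 414 on the 4 other silenced arrays, a gap also past the limit.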

How the results depend on the processing

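No paired analysis was possible because the groups share no replicate number. The count of probe sets that rose, 2, was 2 or 3 with both other normalizations, both pseudocounts, the filter, both eBayes settings, array weights and the melanocyte split as a block. It was 1 with the spike split as a block, 0 within the arrays of high melanocyte level, 0 within those of low spike level, and 0 to 2 when an array was left out. With quantile normalization Ier3 did not pass and Fosl2 did (limma adjusted p = 0.0445). The count that fell, 0, was 1 with array weights (Fosb), 1 with the melanocyte split as a block (Egr1), 2 within the arrays of low melanocyte level (Egr1 and Fos, a subset chosen after seeing the data that rests on 1 control array), and 0 to 1 when an array was left out. Jund differed by 0.21 to 0.41 and Ier3 by 0.15 to 0.20 over 20 alternatives each. No called difference changed sign. When an array was left out, 9 to 12 other immediate early and early response genes rose, and 0 to 8 upstream genes and 1 to 5 inhibitors fell. The causes were not tested. Shares over all probe sets or genes were counted only for the main fit, the melanocyte block and, in part, the arrays of low melanocyte level. Counts in the other fits, those of the lists included, therefore cannot set these genes apart from the rest of the array. Only 2 control arrays limit every value.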
